A study of Homo sapiens with 8 samples.

Results

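Total RNA of L1236 cells that carried a miR-155 sponge was compared with total RNA of L1236 cells that carried an empty vector. The aim was to see which transcripts differed in level between them. The study proposes that the sponge did not capture all miR-155 in this line. L1236 is a cell line from a Hodgkin lymphoma. Both cell populations had been transduced with the pMSCV-PIG vector, either empty (EV) or with the sponge construct, and GFP+ cells had been sorted from each. The RNA was taken from the total fraction (T) of the cells, beside an Argonaute 2 immunoprecipitate (Ago2-IP, here IP) of the same cells. The measurement covers 2 RNA samples of the 4 in the series. Each was labelled once with Cy3 and once with Cy5, which gives 4 of the 8 channels on 4 arrays. With 1 sample per group there is no replicate check and no p-value. The ± values are the SD over the 2 dyes, which covers labelling and hybridisation and leaves out the variation between cultures. The control cells carried the vector and GFP too, and the labels name no clones and no separate transductions. Each array held T and IP of 1 population, so that array and group cannot be told apart.

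A miRNA pairs with target transcripts mainly through its seed and, held by an Argonaute protein, lowers their stability and translation. A sponge is a transcript with many sites for one miRNA, which occupies that miRNA and leaves fewer molecules for the natural targets. MiR-155 is processed from the transcript MIR155HG, which Hodgkin cells express at high levels. The mature sequence is shown because it is the RNA that the sponge binds, with its seed, bases 2 to 8 from the 5′ end, in capitals. It is taken from RefSeq and lies on chromosome 21 (GRCh38.p14, 25573983 to 25574006, plus strand). The site complementary to this seed reads AGCAUUA.
hsa-miR-155-5p: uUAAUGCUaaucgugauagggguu

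The deposited table holds 22282 probes, and the 20020 of them whose spots the scanner software marked as well above background in each of the 4 T channels were kept. Accessions gave a gene symbol to 71.0% of them, for 10354 genes. The mark was set for 53.2% of all array probes in sponge T Cy5, the weakest channel, and for 60.2% to 65.1% in each of the other 7. The markers of the line were present. All 25 Hodgkin cell markers were kept, among them TNFRSF8 (CD30), with log2 signals of 14.06 and 13.92 in EV T and 13.91 and 13.89 in sponge T (Cy3 and Cy5). Of 30 B-cell identity genes 19 were kept, and MS4A1 (CD20), PAX5 and CD22 were among those that were not. Of 57 markers of T and NK cells, myeloid cells, fibroblasts and epithelium, 11 were kept. CD3D, CD3E, CD8A, CD33, LYZ, COL1A1 and EPCAM were not among them, and CD4 was, at 14.05 and 14.34 in EV T and 13.84 and 14.70 in sponge T. THY1 (12.8 and 13.2 in EV T) and KRT8 (11.1 and 11.8) were kept too, above the median level of 10.24 over all kept probes.

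The change of a probe is its log2 signal in sponge T minus that in EV T, taken within each dye and then averaged. Most changes were small. The middle 50% of probes lay between -0.13 and 0.12, with a median of -0.01, and 1% of probes lay above 0.58. The changes in Cy3 and Cy5 correlated weakly (Pearson r = 0.37 over the 20020 probes, which share the 2 RNA samples), from 0.32 among the 5005 dimmest probes to 0.47 among the 5005 brightest. Changes spread more in Cy5 (SD 0.288) than in Cy3 (SD 0.208). A probe was therefore called only when it differed at least 1.5-fold in the same direction in both dyes. This gave 62 probes that rose in sponge T, 0.310% of those kept, and 32 that fell, 0.160%. In this bulk RNA a rise in a subset of the cells and a rise per cell cannot be told apart. At 1.3-fold in both dyes, 1.57% were higher and 1.05% lower. Simply above 0 in both dyes were 29.5% of probes, and 32.4% were below 0 in both.

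**Figure D1:**
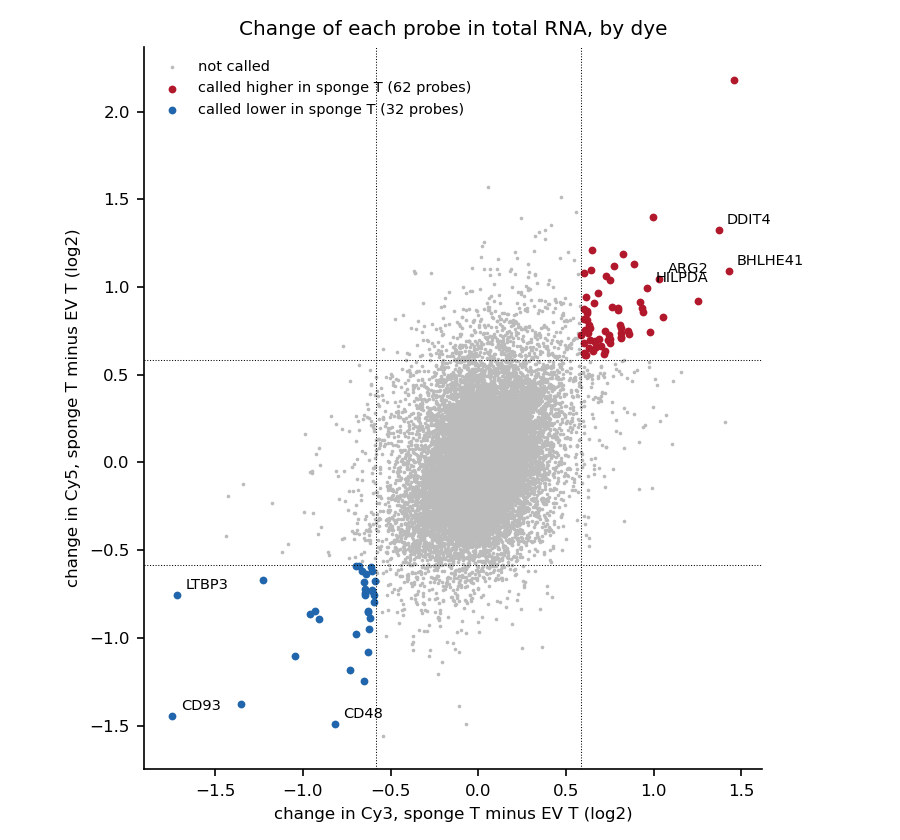
Change of each of the 20020 probes in total RNA (sponge T minus EV T, log2) in Cy3 on the x axis and in Cy5 on the y axis. Dotted lines mark 1.5-fold. The 62 probes called higher and the 32 called lower stand outside the lines in both dyes, and most other probes form a cloud that is wider in Cy5.

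The calls came mostly from dim probes. Of the 94 called probes, 63 (67.0%) were among the 5005 dimmest (mean log2 signal up to 8.64), where the 2 dyes also scattered most. The 6 called probes among the 5005 brightest all rose. Background correction with normexp, loess within arrays and quantile scaling of the array averages left 7 probes called higher and none called lower, against 62 and 32. All 94 probes kept the sign of their mean change under that processing, and 88 kept it in both dyes. Scaling each channel to its 75th percentile gave 83 higher and 25 lower, so that 76.9% of calls were rises against 66.0%. The 6 genes DDIT4, HILPDA, H2AC18, ARG2, ANKRD37 and MARCO were called in each of the 10 alternatives of normalisation, filter or dye.

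Genes known to be induced by low oxygen were among the largest rises. DDIT4, an inhibitor of the growth kinase complex mTORC1 that is induced by hypoxia and by amino acid shortage, had log2 signals of 12.79 (Cy3) and 12.95 (Cy5) in EV T and 14.16 and 14.28 in sponge T. It rose by 1.35 ± 0.03 (2.55-fold). HILPDA, a lipid droplet protein that inhibits triglyceride breakdown and is named for its induction by hypoxia, read 13.42 and 13.25 in EV T against 14.38 and 14.24 in sponge T. Its rise was 0.98 ± 0.02 (1.97-fold). ANKRD37, an ankyrin repeat protein known as a target of the hypoxia-inducible factor HIF-1, read 12.67 and 12.70 in EV T and 13.53 and 13.45 in sponge T, a rise of 0.80 ± 0.07. The 2 related helix-loop-helix repressors BHLHE41 (DEC2) and BHLHE40 (DEC1), which act in the circadian clock and respond to hypoxia, also rose. BHLHE41 was a dim probe, at 6.83 and 6.86 in EV T and 8.25 and 7.96 in sponge T, with a rise of 1.26 ± 0.24. Under normexp its rise shrank to 0.24 and was no longer called. BHLHE40 read 10.68 and 10.87 in EV T against 11.35 and 11.56, and rose by 0.68 ± 0.02. It is named here, outside the 15 largest rises, for its likeness to BHLHE41, after its values were seen.

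The hypoxia and glycolysis list as a whole was shifted upward. Of its 38 genes 36 were kept, and 28 of these (77.8%) were above 0 in both dyes, against 29.5% of all probes. Their median change was 0.22 ± 0.08 (0.26 in Cy3, 0.15 in Cy5), and the median stayed between 0.15 and 0.26 in each alternative run. DDIT4 and ANKRD37 were called, and 6 members passed 1.3-fold in both dyes. The largest changes among those not called were those of SLC2A3, VEGFA and ADM. SLC2A3, a glucose transporter, had a change of 0.65 ± 0.12 from 6.81 and 6.99 to 7.38 and 7.73. VEGFA, the vascular growth factor, had a change of 0.60 ± 0.10 from 9.16 and 8.67 to 9.69 and 9.35, and its 3 other probes gave 0.55 ± 0.16, 0.46 ± 0.0050 and 0.14 ± 0.12. ADM, the vasodilator peptide adrenomedullin, had a change of 0.55 ± 0.08 in T and of 1.90 ± 0.08 in IP. Each of these 3 passed 1.5-fold in one dye and fell short in the other. Glycolytic enzymes were found on both sides of the list's median, in examples chosen after their values were seen. GPI had a change of 0.33 ± 0.10 and HK2 one of 0.27 ± 0.18 with its brightest probe. GAPDH had a change of 0.16 ± 0.04, LDHA one of 0.05 ± 0.11 with its brightest probe and PFKM one of -0.17 ± 0.02.

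**Figure D2:**
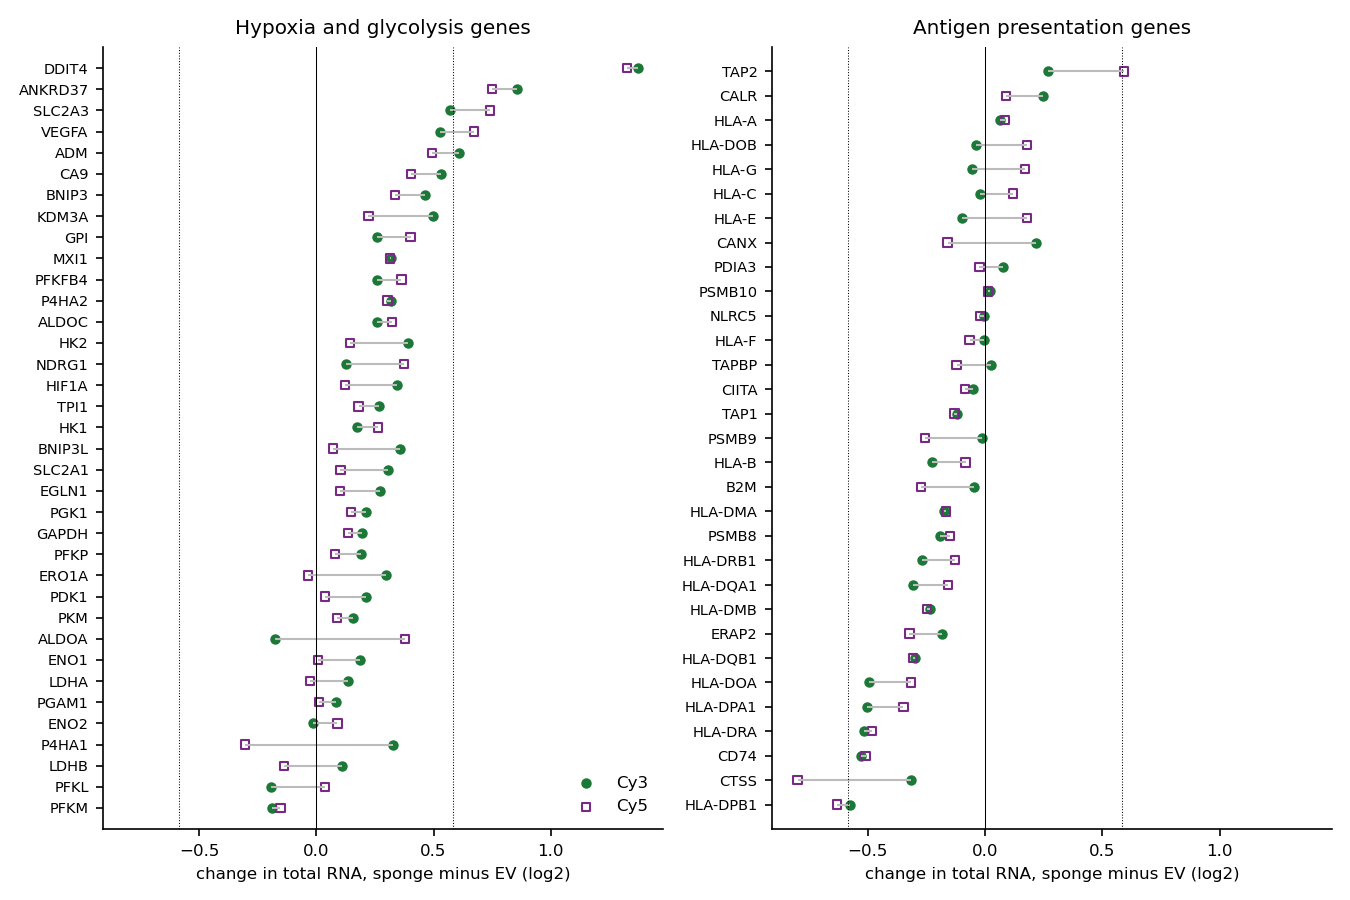
Change in total RNA (sponge minus EV, log2, x axis) of each kept gene of the hypoxia and glycolysis list (left) and of the antigen presentation list (right), with Cy3 as filled circles and Cy5 as open squares. Dotted lines mark 1.5-fold. DDIT4 and ANKRD37 pass the right line in both dyes, and HLA-DPB1, CD74 and HLA-DRA lie among the lowest genes on the right.

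HIF factors bind DNA at sites with the core ACGTG or GCGTG, and only ACGTG was searched for and marked here. The promoters of 4 of the genes that rose are shown to let ACGTG be seen. Each of them holds it, so that they are not a sample of the rises. Given are the 250 bases before the transcript start, from RefSeq (GRCh38.p14), 5′ to 3′ on the strand of the gene. ACGTG, or CACGT for a site on the other strand, is in capitals. CACGTG, where the motif and its reverse overlap, is also the E-box that helix-loop-helix factors such as BHLHE40 bind.
DDIT4, chr10:72273674-72273923, + strand: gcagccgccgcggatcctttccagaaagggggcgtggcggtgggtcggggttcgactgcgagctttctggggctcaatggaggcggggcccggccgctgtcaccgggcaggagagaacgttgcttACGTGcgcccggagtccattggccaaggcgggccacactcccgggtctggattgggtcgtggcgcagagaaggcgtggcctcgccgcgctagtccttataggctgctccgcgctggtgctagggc
ANKRD37, chr4:185396591-185396840, + strand: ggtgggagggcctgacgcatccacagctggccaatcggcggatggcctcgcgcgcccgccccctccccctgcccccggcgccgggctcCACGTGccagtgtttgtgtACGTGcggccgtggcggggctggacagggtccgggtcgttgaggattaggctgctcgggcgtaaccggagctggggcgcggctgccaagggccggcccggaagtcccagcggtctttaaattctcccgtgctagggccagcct
BHLHE40, chr3:4979187-4979436, + strand: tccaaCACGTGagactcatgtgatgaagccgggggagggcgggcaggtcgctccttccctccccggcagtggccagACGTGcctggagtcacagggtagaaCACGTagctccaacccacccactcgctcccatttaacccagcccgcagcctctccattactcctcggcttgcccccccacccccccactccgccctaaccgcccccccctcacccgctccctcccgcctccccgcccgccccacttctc
BHLHE41, chr12:26125038-26125287, - strand: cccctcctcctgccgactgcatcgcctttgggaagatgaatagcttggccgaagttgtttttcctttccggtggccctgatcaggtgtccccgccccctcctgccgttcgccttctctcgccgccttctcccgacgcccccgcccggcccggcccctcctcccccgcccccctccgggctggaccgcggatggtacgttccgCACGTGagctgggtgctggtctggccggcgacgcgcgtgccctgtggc

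The motif starts 125 bases before the start of DDIT4. ANKRD37 holds an E-box and a further ACGTG, at 162 and 143 bases before its start. BHLHE40 holds an E-box 245 bases before its start and further matches at 174 and 149, and BHLHE41 an E-box at 48. A match to 5 letters is frequent: 18.7% of 27305 promoters of this length held it, and 23.9% of the 8496 promoters that matched a kept gene. Among the hypoxia and glycolysis genes 15 of 32 promoters (46.9%) held it, and among the 15 largest named rises 5 of the 12 with a promoter in the table. The list was drawn up from genes known for hypoxia and glycolysis, so that a high share of HIF motifs in it was likely beforehand. DDIT4 and ANKRD37, among the largest rises, belong to that list too. The shares were not tested and do not bear on why the genes rose. The matches are a description of sequence, and HIF binding was not measured.

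Among the other large rises, ARG2, the mitochondrial arginase, read 10.86 and 10.80 in EV T and 11.89 and 11.85 in sponge T. Its change of 1.04 ± 0.01 (2.05-fold) was nearly the same in both dyes. MARCO, a scavenger receptor best known from macrophages, was bright in every channel, at 14.49 and 14.48 against 15.31 and 15.25, a rise of 0.79 ± 0.03. TUBB2B, a beta-tubulin, rose by 0.90 ± 0.06 from 7.77 and 7.86 to 8.71 and 8.72, and was the only call in the cytoskeleton and adhesion list (51 of 62 kept, median 0.02 ± 0.03). MBD2, which binds methylated DNA, rose by 0.84 ± 0.06 with 1 probe and had a change of -0.12 ± 0.28 with the other. The remaining named rises among the 15 largest came from dim probes. They were GK (glycerol kinase, 1.01 ± 0.26), KCNG1 (a potassium channel subunit, 0.94 ± 0.16), SLC7A5 (the light chain of a large amino acid transporter, 0.90 ± 0.20), MYO1A (a brush border myosin, 0.87 ± 0.32), CEACAM1 (a cell adhesion receptor, 0.84 ± 0.34) and GRIN2C (a glutamate receptor subunit, 0.83 ± 0.05). Under normexp each of these 6 changes was at most 0.25.

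**Figure D3:**
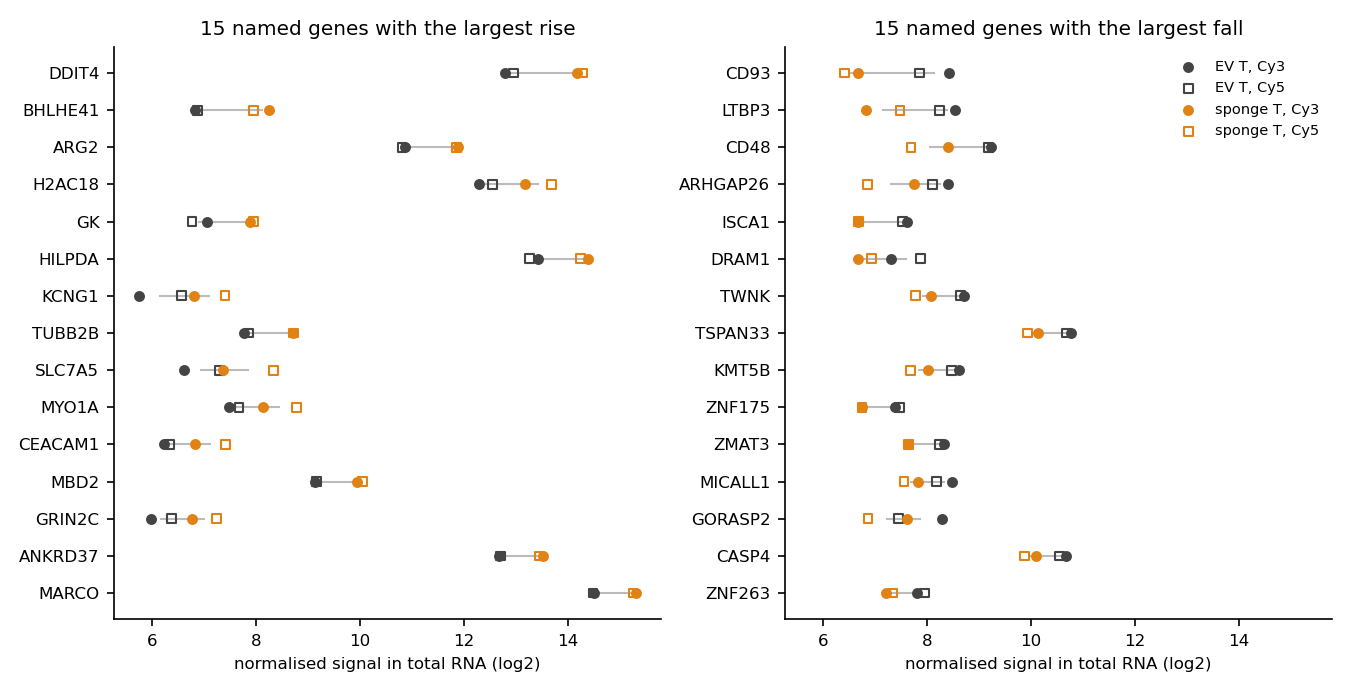
Normalised log2 signal in total RNA (x axis) in each of the 4 T channels for the 15 named genes with the largest rise (left) and the largest fall (right). Dark symbols are EV T and orange symbols sponge T, circles Cy3 and squares Cy5, and grey lines join the group means; signals of different genes are not comparable. DDIT4 moves from about 12.87 to 14.22, and most genes on the right lie at low signals in every channel.

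Replication-dependent histone genes, which are transcribed in S phase and whose mRNAs mostly end in a stem-loop instead of a poly(A) tail, were higher in sponge T as a list. Of 71 genes 59 were kept, 52 of them (88.1%) were above 0 in both dyes and none was below 0 in both. The median change was 0.29 ± 0.04, and it stayed between 0.29 and 0.35 in each alternative run. H2AC18 was the only call. It read 12.29 and 12.54 in EV T and 13.18 and 13.67 in sponge T, a rise of 1.01 ± 0.17, and its second probe rose by 0.70 ± 0.09. A further 15 members passed 1.3-fold in both dyes without a call. The largest were H1-2 (0.59 ± 0.09), H2BC12 (0.56 ± 0.02) and H2BC3 (0.55 ± 0.07). All 16 H2B genes were above 0 in both dyes, with a median of 0.43 and a range of 0.26 to 0.56, and so were all 13 H2A genes, with a median of 0.26. The H4 genes had a median of 0.30 and the linker histones (H1) one of 0.19. The 12 H3 genes had a median of 0.18, with 0.33 in Cy3 and 0.13 in Cy5. Histone genes have near-identical coding sequences, and probes of one class can share transcripts, so that the members are not separate observations. The study labelled RNA of this line with the Low Input Quick Amp kit. How fully that labelling takes up mRNAs without a poly(A) tail was not tested. The histone values are therefore changes of array signal, which may not follow the level of histone mRNA.

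Cell cycle lists gave smaller values. DNA replication genes had a median change of 0.02 ± 0.05, and G1 and S-phase entry genes one of -0.06 ± 0.05. Mitosis genes had a median change of 0.08 ± 0.06 with 36 of 57 (63.2%) above 0 in both dyes and none called. INCENP, a subunit of the chromosomal passenger complex, had the largest change (0.46 ± 0.24), and ANLN, a scaffold of the cytokinetic ring, had a change of -0.31 ± 0.15. Among 21 kept p53 target genes the median was 0.02 ± 0.03, and it reached 0.12 under normexp. ZMAT3, an RNA-binding zinc finger protein, fell by 0.64 on the log2 scale, from 8.33 and 8.23 to 7.63 and 7.64. CDKN1A, the inhibitor p21 of cyclin-dependent kinases, had a change of 0.52 ± 0.12, from 11.97 and 12.11 to 12.40 and 12.71, and was not called.

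Genes of the ATF4 and amino acid response, which is set off by amino acid shortage and endoplasmic reticulum stress, were also shifted upward. Of 46 genes 37 were kept, 27 (73.0%) were above 0 in both dyes, and the median change was 0.19 ± 0.07 (0.10 to 0.21 over the alternatives). DDIT4 belongs to this list too. The other call was JDP2, a bZIP repressor of the AP-1 family, at 10.04 and 10.39 in EV T and 10.62 and 11.11 in sponge T, a rise of 0.66 ± 0.10 that held in 5 of 10 alternatives. CTH, a cystathionine lyase, had a change of 0.38 ± 0.21. The tryptophanyl-tRNA synthetase WARS1 had a change of 0.36 ± 0.03, and TRIB3, a pseudokinase that restrains ATF4, one of 0.35 ± 0.11. Immediate early genes had a median of 0.12 ± 0.03, with 13 of 27 above 0 in both dyes. ZFP36, which destabilises AU-rich mRNAs, had a change of 0.37 ± 0.05, and DUSP6, a phosphatase of ERK, one of -0.37 ± 0.19.

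Of the 32 falls 25 were among the 5005 dimmest probes, as were 38 of the 62 rises. CD93, a C-type lectin-like membrane receptor, had the largest, from 8.41 and 7.85 in EV T to 6.67 and 6.41 in sponge T, a change of -1.59 ± 0.21 (3.02-fold). LTBP3, which binds latent TGF-beta, read 8.54 and 8.23 against 6.83 and 7.48 and had a change of -1.24 ± 0.68. Under normexp the changes of CD93 and LTBP3 were -0.33 and -0.25. CD48, a surface receptor of the SLAM family, fell with both of its probes. The brighter one read 11.01 and 10.98 in EV T and 10.31 and 10.00 in sponge T, a change of -0.84 ± 0.20, and the dimmer one had a change of -1.15 ± 0.47. TSPAN33, a tetraspanin of activated B cells, read 10.77 and 10.67 against 10.12 and 9.93, a change of -0.69 ± 0.07, and its other probes gave -0.55 ± 0.01 and -0.27 ± 0.09. CASP4, an inflammatory caspase, read 10.68 and 10.54 against 10.09 and 9.87 and had a change of -0.63 ± 0.06. For CD48, TSPAN33 and CASP4 the sponge channels lay below both EV channels, which the call rule makes likely for any called probe.

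The other named falls were each on a dim probe. Brighter probes of some of these genes gave smaller values: -0.25 ± 0.15 for ARHGAP26, -0.13 ± 0.05 for TWNK and -0.09 ± 0.03 for GORASP2. A second probe of KMT5B gave 0.11 ± 0.72. ARHGAP26, a GTPase-activating protein, had a change of -0.95 ± 0.42, and ISCA1, an iron-sulphur cluster assembly protein, one of -0.89 ± 0.06. The other ISCA1 probes, all brighter, gave -0.51 ± 0.09, 0.36 ± 0.08 and 0.11 ± 0.01. DRAM1, a lysosomal membrane protein of autophagy, had a change of -0.79 ± 0.23 and the mitochondrial DNA helicase TWNK one of -0.74 ± 0.16. KMT5B, a histone H4 methyltransferase, and the zinc finger protein ZNF175 each had a change of -0.69. MICALL1, an endosomal scaffold, and GORASP2, a Golgi stacking protein, each had a change of -0.64, and ZNF263 one of -0.61. GORASP2 read 8.29 and 7.45 in EV T, which spanned the 7.60 of sponge T in Cy3. For the other genes the 2 groups did not overlap, which the call rule makes likely for any called probe.

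Within the antigen presentation list the genes of the class II pathway were lower. Class II molecules present peptides from the endosome and are a mark of B cells. Of 32 genes 31 were kept, 20 of these (64.5%) were below 0 in both dyes against 32.4% of all probes, and the median was -0.13 ± 0.02. Over the alternatives it ranged from -0.14 to -0.08, with -0.08 under 75th percentile scaling and -0.09 under normexp. None was called. The 3 members lower by 1.3-fold in both dyes were HLA-DPB1, CD74 and HLA-DRA. HLA-DPB1, a class II beta chain, read 14.21 and 14.10 in EV T and 13.64 and 13.47 in sponge T, a change of -0.60 ± 0.04. CD74, the invariant chain that escorts class II molecules, read 10.96 and 10.86 against 10.43 and 10.35, a change of -0.52 ± 0.01. HLA-DRA, the alpha chain of HLA-DR, read 13.52 and 13.49 against 13 in each dye, a change of -0.50 ± 0.02. CTSS, the protease that trims the invariant chain, had a change of -0.56 ± 0.34. The list was then split by the molecule each gene serves, a split made after the values were seen. Of the 12 class II genes with CD74 and their activator CIITA, 11 were below 0 in both dyes, HLA-DOB being the exception, with a median of -0.27 ± 0.02. Counting every kept probe, 16 of 17 were below 0 in both dyes. Of the 7 class I genes with B2M, 3 were, and 8 of their 12 probes. Their median over genes was 0.04 ± 0.09, turning to -0.01 under normexp. The class II median was -0.21 under normexp.

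MIR155HG, the precursor transcript of miR-155, was lower in sponge T. Its log2 signals were 11.54 and 11.47 in EV T and 10.84 and 10.93 in sponge T, a change of -0.62 ± 0.12. It passed 1.5-fold in Cy3 (-0.70) and fell just short of it in Cy5 (-0.54), and so was not called. It was also the Hodgkin marker with the largest change. The median of the 25 markers was 0.07 ± 0.04. CSF2, the growth factor GM-CSF, had a change of -0.38 ± 0.13, and CCL17, the chemokine TARC, one of 0.33 ± 0.08. Of the other 4 kept host transcripts of miRNAs, MCM7 had the largest change (0.18 ± 0.06). AGO2 read 12.76 and 12.50 in EV T and 12.78 and 12.48 in sponge T, a difference within the spread between dyes. The miRNA machinery list had a median of -0.06 ± 0.03 and no call.

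Targets of miR-155 did not stand higher in sponge T as lists. How far the sponge lowered free miR-155 was not measured here. Of the 54 genes commonly named as its targets, 43 were kept, and none was called. Their median change was -0.02 ± 0.10, with 8 above 0 and 10 below 0 in both dyes, and its sign turned with the dye (0.06 in Cy3, -0.08 in Cy5). SATB1, a chromatin organiser, had a change of 0.31 ± 0.15. HBP1, a transcriptional repressor, had a change of -0.30 ± 0.76, with its dyes on opposite sides of 0. The ST486 list holds 54 genes that the study had picked in another lymphoma line with miR-155 overexpressed. It had 44 genes kept, a median of -0.05 ± 0.05 and 14 genes above 0 against 13 below 0 in both dyes. Its sign turned to 0.03 in Cy3 alone and under normexp. CSRP2, a LIM domain protein, was its only call, at 9.10 and 8.83 in EV T and 9.70 and 9.65 in sponge T, a rise of 0.71 ± 0.15. ZFP36 had a change of 0.37 ± 0.05 and TBC1D14, a regulator of autophagosome formation, one of -0.37 ± 0.29. As a list for another miRNA family, the miR-17 targets had a median of -0.07 ± 0.01 over 19 genes.

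Of the 6 targets that the study had followed up, 5 had a kept probe and none passed 1.3-fold in both dyes in T. JARID2, a cofactor of the Polycomb complex PRC2, read 10.39 and 10.51 in EV T and 10.55 and 10.61 in sponge T, a change of 0.13 ± 0.05. PSIP1, a chromatin reader, had a change of 0.18 ± 0.19, 0.03 ± 0.17 and -0.03 ± 0.25 with its 3 probes. HOMEZ, a homeobox protein, had a change of 0.12 ± 0.18 and -0.11 ± 0.01 with its 2. DET1, a ubiquitin ligase component, had a change of -0.04 ± 0.20. TBRG1 had a change of 0.09 ± 0.19 with its probe A_24_P21752. The study describes an IP-enriched probe for the protein-coding isoform (NIAM) alone, and a brighter one that reads both main isoforms. A_24_P21752 is not the probe of the ST486 list, which places it as the one for both, though its sequence was not checked. Its other probe, A_23_P98463, which stands for it in the ST486 list, was well above background in 2 of 4 T channels and was not kept. Neither TRIM32 probe was well above background in any T channel. Apart from JARID2 and the second HOMEZ probe, each of these values was within its spread between dyes.

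**Figure D4:**
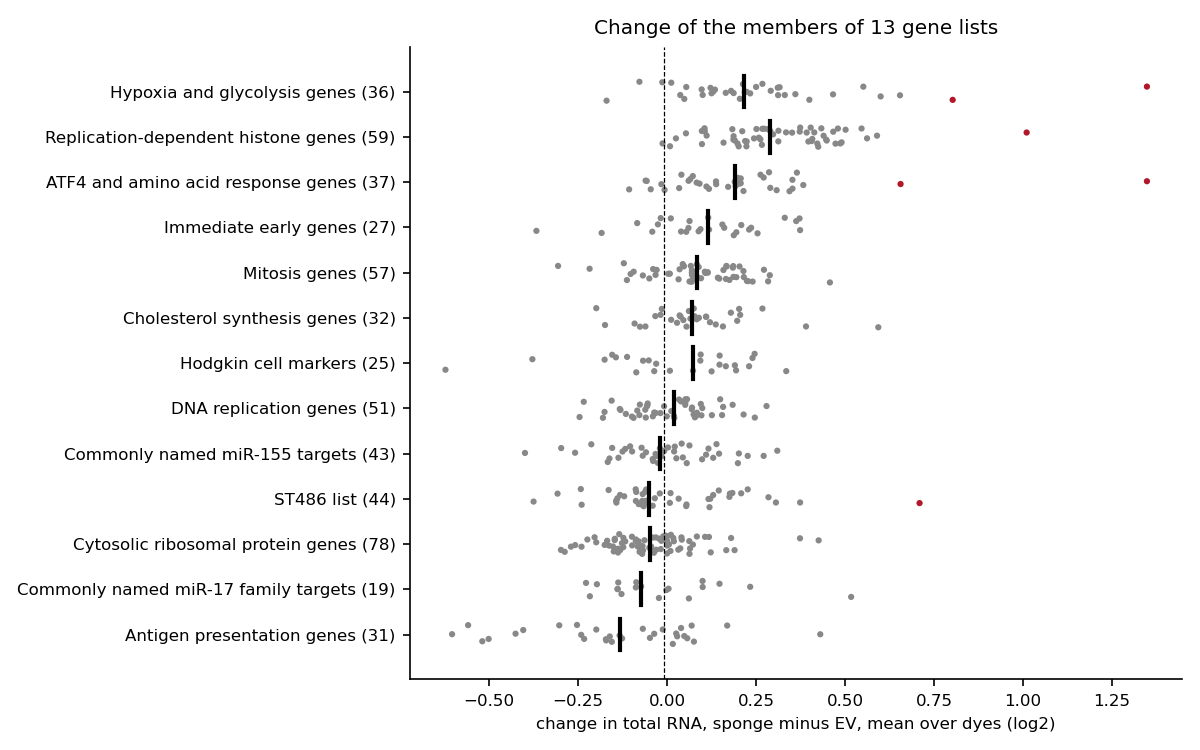
Change in total RNA (sponge minus EV, mean over dyes, log2, x axis) of each kept member of 13 gene lists, with the number kept in brackets. Black bars are list medians, red points are members called higher, and the dashed line is the median of all probes. The histone (0.29), hypoxia (0.22) and ATF4 (0.19) lists lie to the right of it, the miR-155 target lists close to it, and the antigen presentation list (-0.13) to the left.

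B-cell identity genes had a median of 0.10 ± 0.03. PRDM1 (BLIMP1), the repressor that drives plasma cell differentiation, read 8.61 and 8.74 against 9.13 and 9.21, a change of 0.49 ± 0.03. It passed 1.3-fold in both dyes and was not called. None of the 11 kept markers of other cells was called. ACTA2 (0.69 ± 0.32) and MUC1 (0.61 ± 0.20) passed 1.3-fold in both dyes, while CD7 (0.60 ± 0.51) and CD14 (0.39 ± 0.38) did not, and KRT18 had a change of -0.30 ± 0.01. Their part in the results was not tested. Reference genes had a median of 0.06 ± 0.02 over 16 genes. The other 17 lists had medians between -0.06 and 0.07, with none of their 647 kept entries called. Among them were the DNA replication and G1 lists given above, ribosomal proteins, the proteasome, interferon-stimulated genes, NF-kB, JAK-STAT and TGF-beta genes.

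A second probe of the same gene gave a mixed answer. Across 3029 genes with several kept probes, the changes of the 2 brightest correlated at r = 0.37 (across genes, which are not independent replicates). The called genes had 21 further probes. For rises, 3 of 9 were above 0 in both dyes, against 29.5% of all probes, for H2AC18, NRN1 and SLC7A5. For falls, 8 of 12 were below 0 in both dyes, against 32.4% of all. These were 2 of TSPAN33 and 1 each of CD48, CASP4, ARHGAP26, ISCA1, TWNK (-0.13 ± 0.05) and GORASP2 (-0.09 ± 0.03). The remaining probes of ISCA1 were above 0 in both dyes, at 0.36 ± 0.08 and 0.11 ± 0.01. In each direction 1 further probe was called, of H2AC18 and of CD48. NRN1, a neuronal cell surface protein, had 0.72 ± 0.03 and 0.29 ± 0.13. SLC7A5 had 0.90 ± 0.20 and 0.08 ± 0.06, GK 1.01 ± 0.26 and 0.06 ± 0.14, and DRAM1 -0.79 ± 0.23 and 0.13 ± 0.16. For these 3 the second probe was far from the called one.

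The IP fraction gives a further readout of the same 2 cell populations, in RNA that came down with Ago2. Of the 62 probes that rose in T, 52 were above 0 in both dyes in IP, against 39.7% of all probes, and 16 were at least 1.5-fold higher in IP (0.330% of all). Of the 32 that fell in T, 27 were below 0 in both dyes in IP, against 35.2% of all, and 9 were at least 1.5-fold lower (0.230% of all). The median change in IP was 0.53 ± 0.10 for the rises and -0.40 ± 0.01 for the falls. DDIT4 was higher in IP by 1.89 ± 0.05, BHLHE41 by 1.19 ± 0.06, ARG2 by 1.16 ± 0.06 and ANKRD37 by 1.12 ± 0.01. CD93 had a change of -1.24 ± 0.18 in IP and LTBP3 one of -1.60 ± 0.06. Dim genes such as KCNG1 (0.20 ± 0.16), CEACAM1 (0.14 ± 0.18) and GRIN2C (0.14 ± 0.24) had IP changes near their spread. The histone list had a median of 0.15 ± 0.08 in IP, beside 0.29 ± 0.04 in T, and the H2B genes 0.17 beside 0.43. The hypoxia list had a median of 0.27 ± 0.02 in IP, the ATF4 list 0.28 ± 0.04 and the class II genes -0.23 ± 0.01. The ST486 list had -0.26 ± 0.02 in IP, beside -0.05 ± 0.05 in T. T and IP come from the same cells, and IP is not another culture. They were also read on the same spots of the same arrays, so that their changes are not independent.

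**Figure D5:**
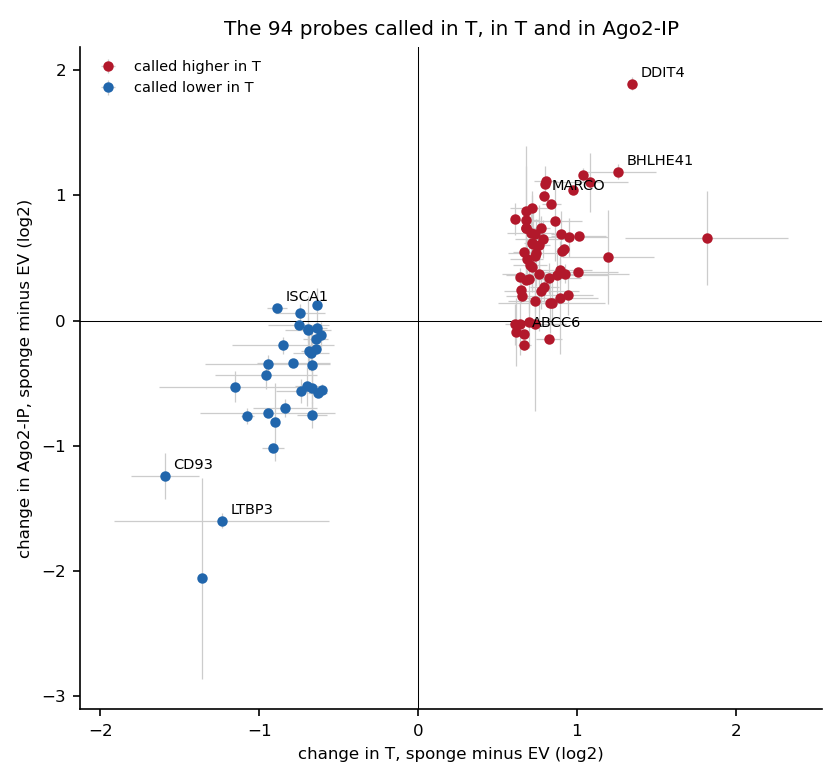
The 94 probes called in T, with their change in T on the x axis and in Ago2-IP on the y axis (sponge minus EV, log2; bars are the SD over the 2 dyes). DDIT4 (1.35 in T, 1.89 in IP) and CD93 (-1.59 and -1.24) lie in opposite corners, and ISCA1 and ABCC6 have IP changes of the opposite sign.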

How the data were processed

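Total RNA of 2 cell populations was hybridised to 2-colour Agilent 44k arrays. The deposited series table holds the authors' log2 values for 22282 probes, which the study's methods describe as quantile normalised in GeneSpring and filtered on detection and on the agreement of Cy3 and Cy5. Per the file headers, spot intensity values were extracted by the authors with Feature Extraction 10.7.3.1 (the labels name 10.5.1.1), with flags for signals well above background. Each sample's own dye channel was used. No T spot was saturated. Each array file was deposited under both of its samples and was read once per channel. Depth has no meaning for arrays, and their number limits the precision.

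The log2 difference sponge minus EV was taken within each dye and averaged. Probes had to be well above background in all 4 T channels. A call asked for at least 1.5-fold in the same direction in both dyes. No test between groups was run, since each group is 1 sample. Accessions were named through RefSeq (GRCh38.p14). Of a gene's probes the one of highest mean T signal stood for it in a list. Named were the 15 largest called rises and falls with a gene symbol, every called list member, up to 3 other members with the largest change, MIR155HG, AGO2 and 6 genes the study selected. Some list members that this rule names are not reported here. Other names are said to have been chosen after their values were seen, or belong to markers, probe checks and the class II split. The members and the 36 gene lists were chosen with earlier results of these data known. Alternatives were quantile normalisation over 8 or 4 channels, 75th percentile scaling, centring, normexp (offset 50) with loess and Aquantile, other filters, each dye alone and other thresholds. The code that makes the calls was tested on simulated data. Python 3.11.15, pandas 2.3.3, R 4.3.3 and limma 3.58.1 were used. The sponge construct and IP/T ratios were not analysed here.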

Additional observations from a re-analysis of the deposited data

Results flagged for a closer look

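For 6 of the 94 probes called in T, the change in IP had the opposite sign in both dyes. The difference between the fractions was not tested. ISCA1 (A_24_P387609) had a change of -0.89 ± 0.06 in T and of 0.10 ± 0.01 in IP. TWNK had a change of -0.74 ± 0.16 in T and of 0.06 ± 0.07 in IP, and ABCC6, a transporter of the ATP-binding cassette family, one of 0.66 ± 0.01 in T and -0.10 ± 0.03 in IP. Probes without a gene symbol were A_24_P239676 (-0.64 in T, 0.13 ± 0.13 in IP), A_32_P148726 (0.67 ± 0.04 in T, -0.20 ± 0.04 in IP) and A_32_P83174 (0.82 ± 0.08 in T, -0.14 ± 0.03 in IP). All 6 were well above background in the 4 IP channels. For TWNK and A_24_P239676 the IP change was no larger than its spread between dyes. Other probes of ISCA1 gave -0.51 ± 0.09, 0.36 ± 0.08 and 0.11 ± 0.01 in T.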

How the results depend on the processing

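The counts of calls, 62 higher and 32 lower, depended on the rule and on the background correction. They were 7 and 0 with normexp, loess and Aquantile, 109 and 133 with no filter on the T channels, 173 and 149 with Cy3 alone, 612 and 350 with Cy5 alone, 188 and 91 when only the mean over dyes had to reach 1.5-fold, and 4 and 3 at 2-fold in both dyes. At 1.3-fold in both dyes, a threshold chosen after seeing the data, they were 315 and 210. Quantile normalisation over 8 or 4 channels, centring and a filter on all 8 channels moved neither count by over 1.5 times. The median of the ST486 list turned to 0.027 with normexp and 0.033 with Cy3 alone. That of the commonly named targets ranged from -0.08 to 0.06. The histone median was 0.33 with 75th percentile scaling and 0.35 with Cy3 alone. In IP the median of the probes called higher (0.53) and lower (-0.40) became 0.38 and -0.23 with no filter on T, 0.31 and -0.20 with Cy3 alone, 0.13 and -0.13 with Cy5 alone, 1.18 and -1.24 at 2-fold, 0.38 and -0.31 for the mean over dyes, and 0.37 and -0.20 at 1.3-fold. Of 319 values of the named genes over the alternatives, 315 kept their sign, the 4 others being those of AGO2. Of the 94 calls, 80 held in each alternative of normalisation, filter or dye apart from normexp. The cause of the smaller counts under normexp was not tested. No paired analysis was possible because the labels give no replicate numbers and each group is 1 RNA sample.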

Other observations

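Of the 62 rises 31 probes had a gene symbol, and of the 32 falls 16. The largest rise of all belonged to a probe without one, A_32_P33802, which read 5.81 and 5.94 in EV T and 7.27 and 8.12 in sponge T, a change of 1.82 ± 0.51, with 0.66 ± 0.37 in IP. A_24_P570930 had the second largest fall (-1.36 ± 0.02, from 8.40 and 8.81 to 7.05 and 7.43). A_23_P137825 was the one probe without a symbol called under normexp as well, at 11.55 and 11.99 in EV T and 12.36 and 12.77 in sponge T, a change of 0.80 ± 0.02 and of 1.09 ± 0.14 in IP. After the 15 largest named rises came PARVG (0.77 ± 0.05), an adhesion protein of the parvin family, AVPR2 (0.76 ± 0.07), a vasopressin receptor, and EFNA3, a ligand of Eph receptors, at 0.74 ± 0.02, with 7.67 and 7.80 in EV T against 8.39 and 8.55 in sponge T.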
